A study of Drosophila melanogaster with 3 samples.

Results

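The mitochondrial ribosomal protein genes of Drosophila melanogaster are the 73 protein-coding genes whose symbol begins with mRpL or mRpS and a number in the Ensembl annotation, out of 13945 protein-coding genes on the main chromosome arms. They comprise 47 large subunit genes (mRpL) and 26 small subunit genes (mRpS). Grain (grn), a GATA zinc-finger transcription factor, was profiled by ChIP-seq in whole embryos of mixed sex aged 0 to 24 h, from the stably transgenic strain grn-GFP, in which GFP is fused to the C-terminus of Grain. Chromatin was sonicated to 200 to 800 bp and precipitated with an antibody against GFP. The 3 biological replicates form 1 group, so no second genotype, stage or untagged embryo was compared. Whole embryos hold many cell types, and strong occupancy in a few cells cannot be told apart from weak occupancy in many.

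Mitochondrial ribosomes translate the few messages encoded by the mitochondrial genome, which specify core subunits of the respiratory chain. Their RNAs come from mitochondrial DNA, whereas all of their proteins are encoded in the nucleus, translated by cytosolic ribosomes and imported. GATA factors bind DNA through zinc fingers that recognise the word GATA in a short context. Grain is known in the fly embryo for its part in the shaping of organs and in motor axon pathfinding. In fly promoters, DREF and M1BP are zinc-finger proteins with their own recognition elements, and E boxes are the sites of basic helix-loop-helix proteins.

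The authors' optimal list, which came from their irreproducible discovery rate test, had 23 peaks over these genes. Of these, 12 carried GATA words within 50 bp of the summit, the base at which the authors placed the top of each peak. The first lines below show some of these copies, at summits ranked from 356 to 5263 in the pooled list. Each sequence was read from release 6 of the genome (dm6) on the coding strand of the named gene, and capitals mark the element. The mRpS23 line (chr2L:13835407-13835492, minus strand) has its word 22 bp from the summit. The mRpL47 line (chr3R:9516566-9516664, minus strand) holds a pair of words, the nearer at 24 bp. For mRpS22 (chr3R:27916707-27916792, plus strand), the word lies 7 bp from the second of its summits, and for mRpS2 (chr2L:4850546-4850631, minus strand) it lies 34 bp away. The second summit of mRpL19 (chr3R:8674226-8674311, plus strand) has the word on the other strand, 34 bp away. The mRpL19 start site line (chr3R:8674044-8674131, plus strand) is shown because its capitals are the only DREF element under a summit of these genes.
mRpS23: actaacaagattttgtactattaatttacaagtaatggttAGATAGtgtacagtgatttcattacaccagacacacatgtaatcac
mRpL47: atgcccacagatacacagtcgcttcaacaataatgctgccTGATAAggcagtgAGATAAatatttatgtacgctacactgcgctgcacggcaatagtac
mRpS22: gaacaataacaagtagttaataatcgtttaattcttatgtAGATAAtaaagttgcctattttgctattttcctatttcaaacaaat
mRpS2: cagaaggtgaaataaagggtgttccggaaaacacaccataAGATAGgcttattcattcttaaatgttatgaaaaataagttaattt
mRpL19 second summit: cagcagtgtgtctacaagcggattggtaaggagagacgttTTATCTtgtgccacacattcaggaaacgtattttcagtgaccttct
mRpL19 start site: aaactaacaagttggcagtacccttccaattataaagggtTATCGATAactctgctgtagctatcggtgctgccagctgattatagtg

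A different word recurs at the 5' ends of these genes whether or not they hold a peak, the E box CAGCTG. It is shown in capitals for mRpL19 (chr3R:8674107-8674132, plus strand), mRpL23 (chr3L:2373707-2373752, minus strand) and mRpL47 (chr3R:9515875-9515900, minus strand), which hold peaks. It is also shown for mRpL14 (chrX:2344676-2344761, minus strand) and mRpL28 (chr2L:4973981-4974006, plus strand), which had no summit in their window in any list. Counting the first base of the gene as 1, the E box begins at base 9 in mRpL19, 19 in mRpL47 and 16 in mRpL28, and 28 and 72 bases before the gene in mRpL23 and mRpL14.
mRpL19 E box: tcggtgctgcCAGCTGattatagtgc
mRpL23 E box: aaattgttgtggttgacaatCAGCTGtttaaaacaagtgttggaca
mRpL47 E box: gttattgcttCAGCTGttttgttcgg
mRpL14 E box: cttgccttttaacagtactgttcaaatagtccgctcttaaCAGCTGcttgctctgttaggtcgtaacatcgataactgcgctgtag
mRpL28 E box: cacatacgaaCAGCTGttttttccaa

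Grain peaks lay at a minority of the mitoribosomal genes, in a share close to that of all protein-coding genes. A gene was counted when a summit fell in its body or within 1000 bp upstream of its 5' end. In the authors' optimal list of 6580 peaks, 19 of the 73 genes held a summit (26.0%, exact 95% interval 16.5 to 37.6), against 25.5% of all protein-coding genes. These were 13 of 47 large subunit genes (27.7%) and 6 of 26 small subunit genes (23.1%). Intervals cover counting error only, and the read depth of the libraries is unknown, since the lists give no read counts. Among the 6580 strongest peaks of each replicate, the genes with a summit numbered 15, 19 and 16 in replicates 1, 2 and 3 (20.5%, 26.0% and 21.9%; mean 22.8% ± 2.85, SD, n = 3). The shares of all protein-coding genes under the same rule were 26.0%, 28.3% and 24.7%.

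The longer lists, which add weaker peaks to the strong ones, gave the same picture. In the pooled list of 30000 peaks, 35 of the 73 genes held a summit (47.9%), against 47.4% of all protein-coding genes. That list contains the optimal list, so 19 of the 35 genes are those counted above. The whole replicate lists, also of 30000 peaks, gave 39, 44 and 34 genes (53.4%, 60.3% and 46.6%), against 51.9%, 61.0% and 48.9% of all protein-coding genes. A further 14 genes had a summit in a replicate list alone, 10 of them in 1 replicate and 4 in 2 replicates, at ranks between 3064 and 29861. Replicate 2, whose list reached the most protein-coding genes, contributed 11 of these 14. No list held a summit in the window of 24 genes, among them mRpL10, mRpL12, mRpL13, mRpL14, mRpL28 and mRpS14.

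**Figure D1:**
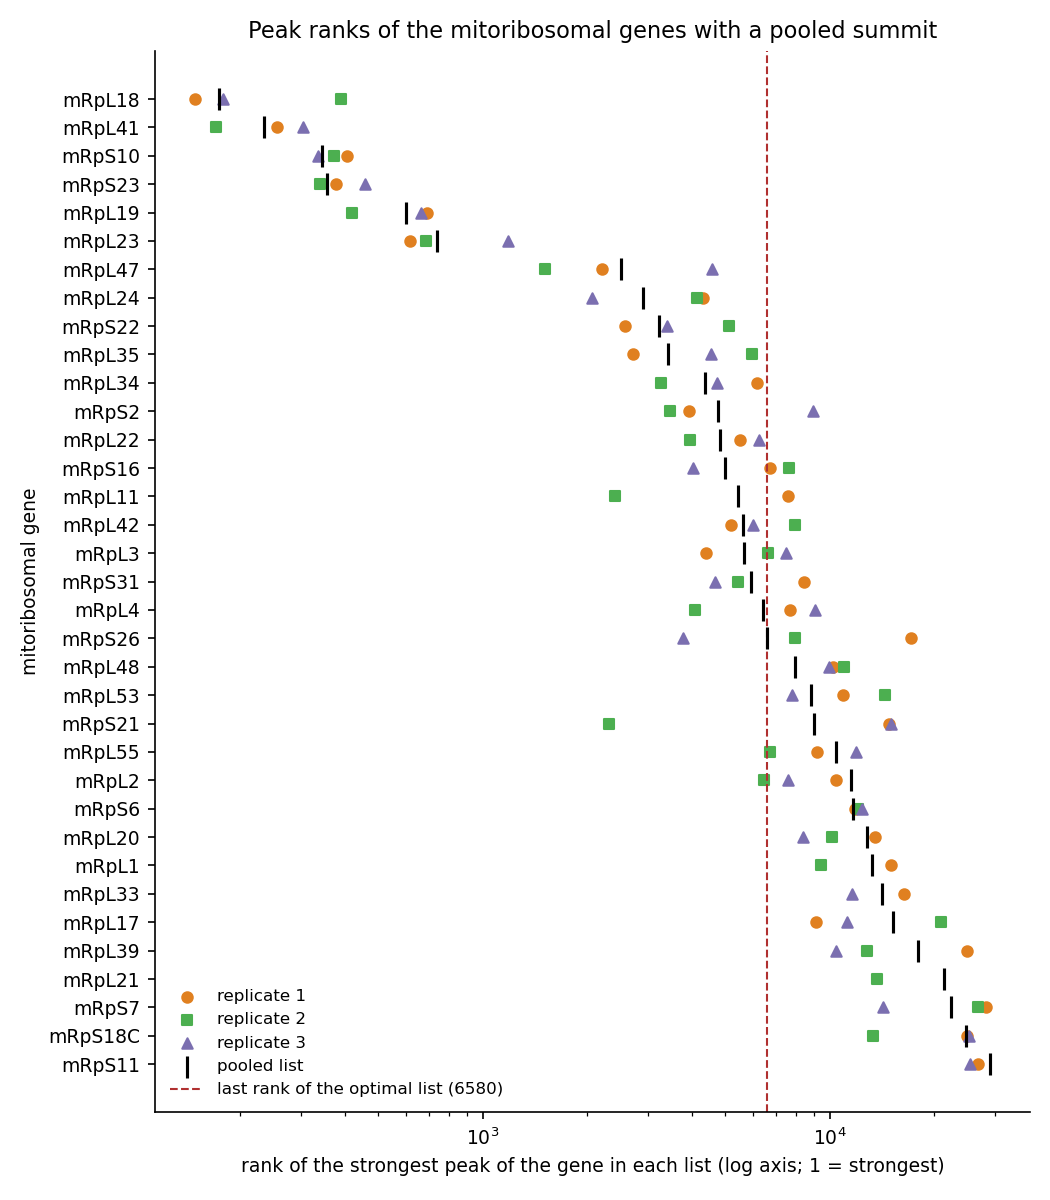
Rank of the strongest peak of each of the 35 mitoribosomal genes with a pooled summit, on a log axis where 1 is the strongest peak of a list. Symbols are the 3 replicates, black ticks the pooled list and the dashed line the last rank of the optimal list, 6580; 6 genes lie below rank 1000 in the pooled list and the next follows at 2509.

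Within the optimal list the mitoribosomal genes fell into a small strong set and a longer weak one. The 6 strongest had pooled ranks between 174 and 738, and the next, mRpL47, came at 2509. Ranks were used because the deposited signal values have no stated scale and are set separately in each list.

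Large subunit genes held both of the top places. mRpL18, whose bacterial counterpart binds 5S ribosomal RNA, ranked 148 in replicate 1, 392 in replicate 2, 178 in replicate 3 and 174 in the pooled list. Its summit lay 933 bp upstream, in an intron of the neighbouring gene Taz and 98 bp from a Taz start site. Taz encodes tafazzin, which remodels the mitochondrial lipid cardiolipin. mRpL41, a protein without a bacterial counterpart, ranked 256, 170 and 303 in the replicates and 235 in the pooled list, with its summit 144 bp upstream of its own start. These peaks were among the strongest in every replicate.

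A pair of small subunit genes followed. mRpS10 (chr3R:15229665-15230516, plus strand) ranked 406, 372 and 335 in the replicates and 344 in the pooled list. Its summit lay in the 257 bp between its start and that of Art3, which encodes an arginine methyltransferase. mRpS23 (chr2L:13834250-13835072, minus strand) ranked 379, 341 and 458 in the replicates and 356 in the pooled list, with the summit 400 bp upstream of its own start and 92 bp from that of CenG1A, a GTPase-activating protein. Neither gene was out of the strongest 500 peaks in any replicate.

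mRpL19 and mRpL23 completed the strong set. The 3 replicates ranked mRpL19 (chr3R:8674109-8675196, plus strand) 693, 419 and 664, and the pooled list 602. This summit was the closest to its own gene, 5 bp upstream of the 5' end, and no divergent neighbour lay within 1000 bp. mRpL23 (chr3L:2372844-2373704, minus strand), whose bacterial counterpart sits at the exit of the peptide tunnel, ranked 616, 687 and 1184 in the replicates and 738 in the pooled list. Its summit was in its own intron, 117 bp downstream of its 5' end. Replicate 3 placed it lowest, still above every weaker mitoribosomal gene in that replicate.

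The other genes in the list differed by more places between replicates, although their spread relative to the mean rank was not always wider. The SD of the replicate ranks was 133 around a mean of 239 for mRpL18, and 1247 around a mean of 3508 for mRpL24. mRpL47, which corresponds to bacterial L29, ranked 2211, 1509 and 4583 in the replicates, with its summit 676 bp upstream in an intron of the histone demethylase gene Kdm3. mRpL24, of a family that lines the tunnel exit, ranked 4307, 4147 and 2071, and 2892 in the pooled list. mRpS22, a protein specific to mitochondria, ranked 2565, 5122 and 3405 and had the pooled rank 3228. All 3 stayed among the strongest 6580 peaks of every replicate. mRpL35 ranked 2715, 5990 and 4545, and 3426 in the pooled list, with its summit in the 5' UTR of Mitofilin, which organises mitochondrial cristae. For mRpL34 the ranks were 6188, 3270 and 4719, and 4366 in the pooled list. Replicate 3 set mRpS2 well below the other replicates, with ranks of 3932, 3463 and 8953, and 4757 in the pooled list.

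The remaining genes with a sequence element under the summit were weaker still. mRpL22, of a family that lines the peptide tunnel, ranked 5508, 3964 and 6266, and 4835 in the pooled list. mRpS16 ranked 6722, 7623 and 4045, and 5008 in the pooled list, beside the start of cg, which encodes the zinc-finger protein Combgap. mRpL11, at the base of the ribosomal stalk in bacteria, ranked 7604 and 2402 in replicates 1 and 2 and had no summit in replicate 3; its pooled rank was 5438. It was the only one of the 19 genes without a summit in all 3 replicates. Of the 19, 12 were among the strongest peaks of all 3 replicates, 3 of 2 replicates and 4 of 1 replicate.

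Just inside the end of the optimal list were mRpL3, mRpS31 and mRpL4, with pooled ranks of 5665, 5938 and 6433. Just outside were mRpS26, mRpL48 and mRpL53, at 6589, 7962 and 8844. mRpL3, near the peptidyl transferase centre in bacteria, ranked 4401, 6654 and 7474 in the replicates. The ranks of mRpS31 were 8412, 5425 and 4665, and those of mRpL4 were 7675, 4083 and 9060. mRpS26 ranked 17171, 7942 and 3781, and these 3 ranks spread more widely than those of its neighbours at the threshold. mRpL48 ranked 10222, 11031 and 9960, and mRpL53 ranked 10958, 14423 and 7802. In all, 4 genes outside the optimal list were among the strongest peaks of 1 replicate, namely mRpS26, mRpS21, mRpL2 and mRpL52; the last 3 were named after their values were seen. mRpS21 ranked 2310 in replicate 2 and 14773 and 15019 in replicates 1 and 3.

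Most of these summits lay upstream of the genes. For 17 of the 19 genes the strongest optimal summit was upstream of the 5' end, at a median distance of 189 bp (range 5 to 933 bp over all 19), and the gene bodies alone held a summit for 3 genes. The window reaches 1000 bp upstream, whereas the median gene length was 909 bp, and the same counts over all protein-coding genes are not given here. With gene bodies alone, the share among the strongest peaks of the replicates differed from that of all protein-coding genes by -11.7 points. Counting second peaks (4 genes held 2), there were 23 optimal summits, of which 22 (95.7%) were within 500 bp of an annotated transcription start site. The choice of summits in or just upstream of short genes largely fixes that closeness. The median rank of the 23 was 4128, against 3228 for the 2592 other optimal peaks within 500 bp of a start site. Of the 23, 6 (26.1%) were among the strongest 1000 peaks, against 417 (16.1%) of those other peaks.

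Mitoribosomal genes are often arranged head to head with another gene. A divergent neighbour, a protein-coding gene on the opposite strand starting 1 to 1000 bp upstream, was annotated for 56 of 73 mitoribosomal genes (76.7%), against 33.3% of all protein-coding genes. The share was 76.6% for large and 76.9% for small subunit genes, and the median distance between the starts was 288 bp, against 302 bp over all genes with such a neighbour. Cytosolic ribosomal protein genes had a share of 58.7% and genes for subunits of respiratory complex I one of 45.0%.

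**Figure D2:**
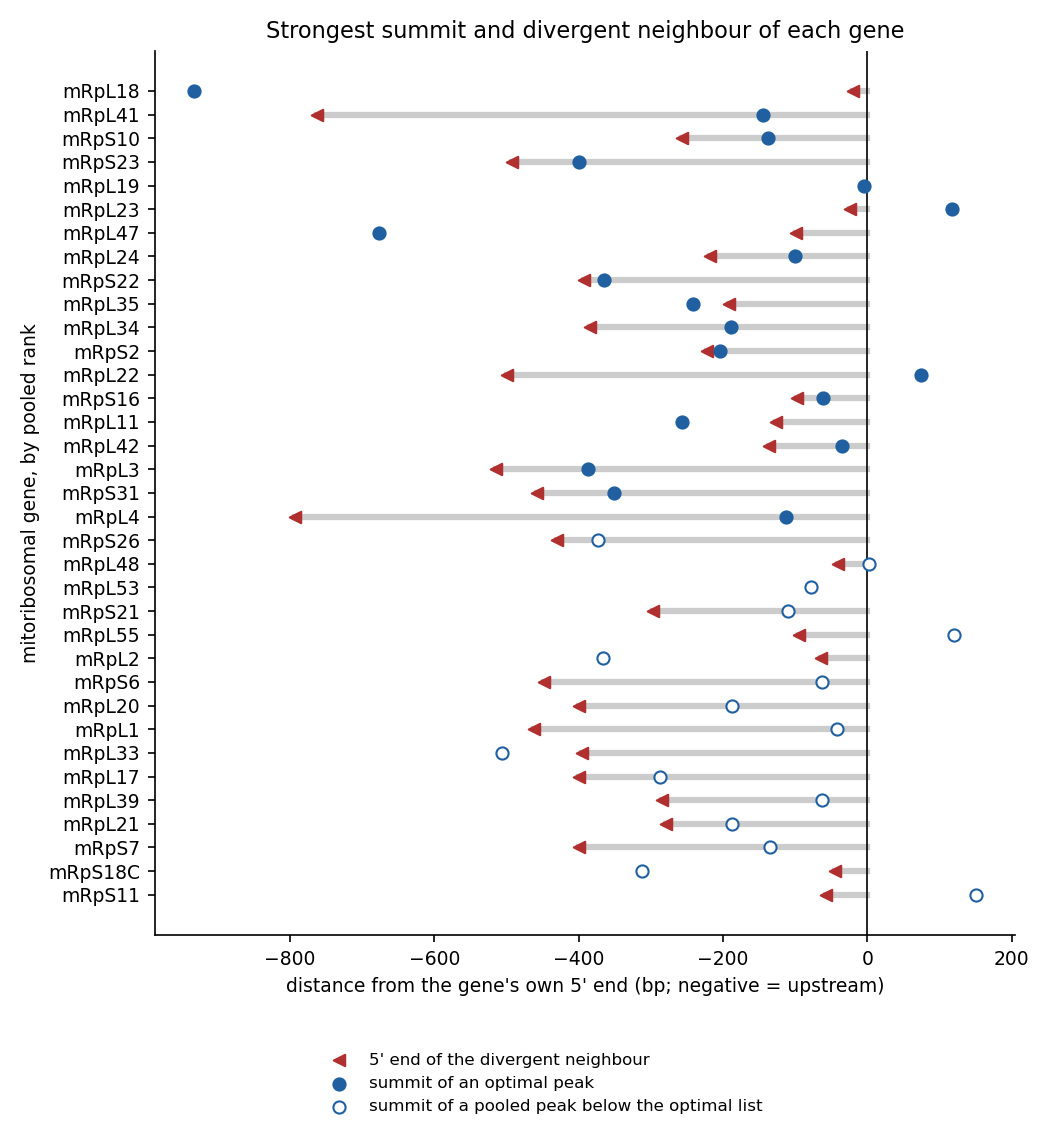
Position of the strongest pooled summit (circles, filled for optimal peaks) and of the divergent neighbour's start (red triangles) from the 5' end of each of the 35 mitoribosomal genes with a pooled summit, in bp. Grey bars span the 2 starts; 12 of the 19 filled circles fall on a bar.

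Of the 19 genes with an optimal summit, 18 had a divergent neighbour, and in 12 the summit lay between the 2 starts. The summit was nearer to the neighbour's start in 11 of the 18 and nearer to the mitoribosomal gene's own start in 7. Genes with only a weaker pooled summit went the other way. Of the 15 with a divergent neighbour, 6 had the summit nearer to the neighbour's start and 9 nearer to their own. Matching counts over all protein-coding genes are not given here, so no trait particular to mitoribosomal genes is read from these. The lists do not tell to which of the 2 genes a peak between 2 starts belongs. Several neighbours of the 18 genes also encode mitochondrial proteins, as with Taz, Mitofilin and HtrA2, a mitochondrial protease that starts 126 bp from mRpL11. Others do not, such as Dg, which encodes the membrane protein dystroglycan and starts 384 bp from mRpL34, and if, which encodes an integrin subunit and starts 499 bp from mRpL22. These neighbours are examples, and mitochondrial neighbours were not counted here or over all genes. When each summit was instead given only to the nearest protein-coding 5' end, 13 mitoribosomal genes had one (17.8%), against 24.7% of all protein-coding genes. Of the 19 genes above, 10 were among them, 9 of 13 large subunit genes and 1 of 6 small subunit genes. The other 3, mRpL13, mRpL45 and mRpL46, took summits from outside the first window and are named after their values were seen. The difference between the subunits was not tested.

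Genes with and without such a neighbour were then counted apart. Of the 56 mitoribosomal genes with a divergent neighbour, 18 held an optimal summit (32.1%), against 31.2% of all protein-coding genes with one. Among the 17 mitoribosomal genes without one, a single gene, mRpL19, held an optimal summit (5.88%), against 22.6% of all protein-coding genes without one. The comparison was repeated among genes of up to 2000 bp, since mitoribosomal genes are short. There 18 of 55 mitoribosomal genes with a divergent neighbour held a summit (32.7%), against 22.1% of all such protein-coding genes, and 1 of 15 without one (6.67%), against 9.59%.

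**Figure D3:**
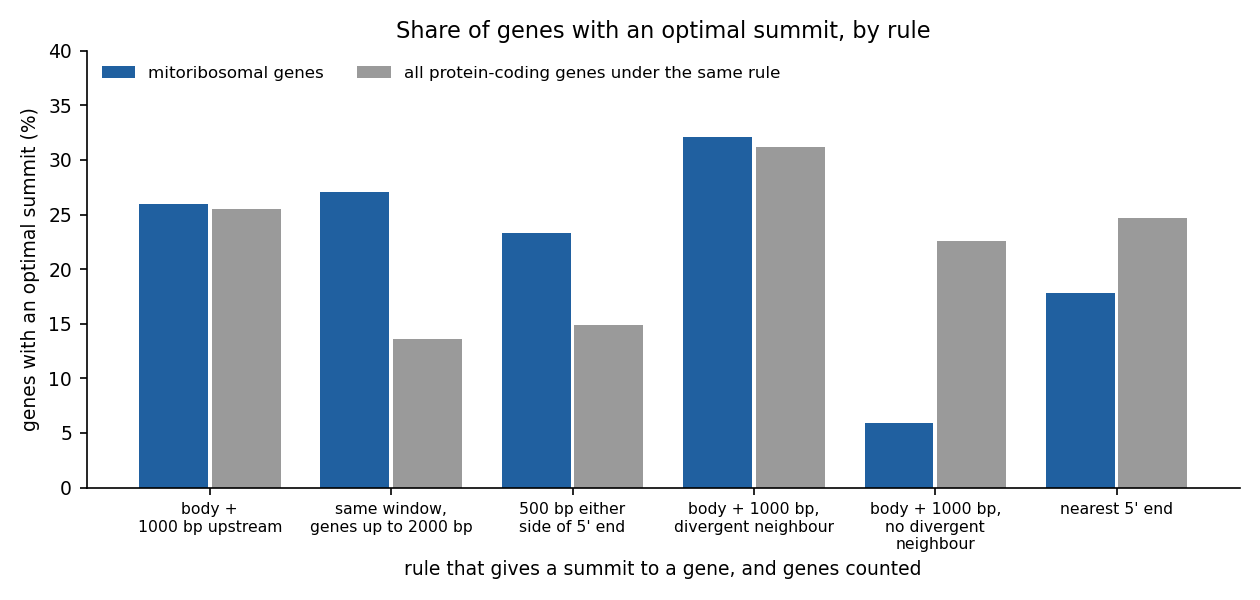
Percent of the mitoribosomal genes (blue) and of all protein-coding genes (grey) with an optimal summit under each rule for giving summits to genes, or among the genes named under the bars. The pair stands at 26.0% and 25.5% with the gene body and 1000 bp upstream, and at 27.1% and 13.6% among genes of up to 2000 bp.

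The closeness to the genome-wide share did not hold among short genes or with a window of equal size. Mitoribosomal genes are short, with a median length of 909 bp (range 390 to 13391 bp), against 2166 bp over all protein-coding genes, and a window that includes the gene body is shorter for them. Of the 70 mitoribosomal genes of up to 2000 bp, 19 held an optimal summit (27.1%), against 13.6% of protein-coding genes of that length. Divergent neighbours, more frequent at mitoribosomal genes, were not matched in that comparison. As given above, the mitoribosomal share at that length was higher with such a neighbour (32.7% against 22.1%) and lower without one (1 of 15, 6.67%, against 9.59%). With a window of the same size for every gene, 500 bp to either side of the 5' end, 17 of 73 mitoribosomal genes held an optimal summit (23.3%, exact 95% interval 14.2 to 34.6). The share was 14.9% for all protein-coding genes and 10.7% for those of up to 2000 bp.

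In the replicates, the sign of the difference changed with the window or the genes it was set against. With the gene body and 1000 bp upstream, the share of mitoribosomal genes among the strongest peaks differed from that of all protein-coding genes by -5.49, -2.28 and -2.78 percentage points in replicates 1, 2 and 3 (mean -3.52 ± 1.73, SD, n = 3). Within 500 bp of the 5' end it was 17.8%, 23.3% and 19.2%, against 15.3%, 17.3% and 14.3% of all protein-coding genes, a mean difference of 4.47 ± 1.80 points. Set against protein-coding genes of up to 2000 bp, with the gene body and 1000 bp upstream, the difference was lowest in replicate 1, at 6.41 points, and averaged 8.54 ± 1.89 points. The mitoribosomal side of that comparison kept all 73 genes, of which 70 are of up to 2000 bp. Each of these differences had the same sign in all 3 replicates, and each had p = 0.25 in a two-sided exact sign-flip permutation test over the replicates, the smallest p that 3 replicates allow.

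GATA words were more frequent under the summits than in windows 500 bp away, which were not matched to the summits for lying in or outside genes. The GATA hexamer was the word GATA with A or T before it and A or G after it, on either strand. It occurred within 50 bp of 12 of the 23 optimal summits of mitoribosomal genes (52.2%, exact 95% interval 30.6 to 73.2), against 39.3% of the other optimal summits within 500 bp of a start site. The interval includes that share. Equally wide windows lying 500 bp to the right of each summit held it at 1 of 23 places (4.35%), and to the left at 2 of 23 (8.70%), against 17.9% and 17.3% for the other promoter peaks. The 12 summits belonged to 9 of the 19 genes and held 15 copies, at a median of 23 bp from the summit (range 0 to 43 bp). The search reached only 50 bp, so these distances do not show that copies centre on the summit. The interval takes the 23 summits as independent, although 4 genes held 2 summits each. In the strong set, mRpL18, mRpL41, mRpS23 and mRpL19 had a copy under the summit, whereas mRpS10 and mRpL23 had none. Among the weaker genes the copies lay at mRpL47, mRpS22, mRpL34, mRpS2 and mRpL11.

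Elements of 2 other promoter factors occurred under few of the 23 summits, and the intervals are wide. The DREF share rests on 1 summit, and its interval includes the share of the other promoter summits. The GATA inside the DREF element TATCGATA is not itself a GATA hexamer, because a C precedes it. The DREF element lay under 1 of 23 summits (4.35%, exact 95% interval 0.110 to 21.9), that of mRpL19, against 2.89% of the other promoter summits. The M1BP element GGTCACAC lay under 3 of 23 (13.0%, exact 95% interval 2.78 to 33.6), at mRpS22, mRpL22 and mRpS16, against 1.70% of the other promoter summits. At mRpS22 it stood in the same window as a GATA hexamer. Neither element occurred in the windows to either side.

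**Figure D4:**
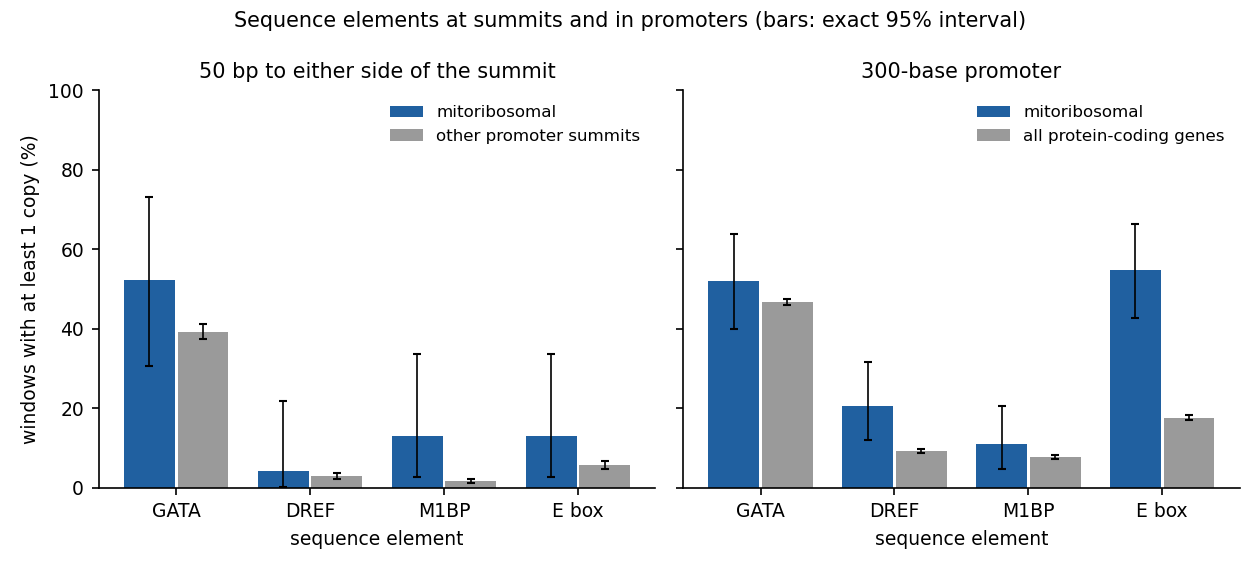
Percent of windows of 50 bp to either side of optimal summits (left) and of 300-base promoters (right) with at least 1 copy of each element, for mitoribosomal genes (blue) and for the other promoter summits or all protein-coding genes (grey); error bars are exact 95% intervals. The widest gap is that of the E box in promoters, 54.8% and 17.7%.

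The promoters themselves, taken as 250 bases before to 50 bases after each gene's 5' end, held GATA words about as often with a peak as without one. The hexamer occurred in 10 of the 19 promoters of mitoribosomal genes with an optimal summit (52.6%) and in 28 of the 54 without (51.9%), against 46.7% of all protein-coding promoters. DREF elements were in 15 of 73 mitoribosomal promoters (20.5%, exact 95% interval 12.0 to 31.6), against 9.36% of all, and M1BP elements in 8 (11.0%), against 7.70% of all. Of the 15 mitoribosomal genes with a DREF element in the promoter, 5 held an optimal summit (33.3%), against 30.7% of all protein-coding genes with one. Of the 58 without, 14 did (24.1%), against 25.0% of all protein-coding genes without one, so both shares were near those of all genes.

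The E box CAGCTG, which reads the same on both strands, was the most frequent of the 9 words searched in mitoribosomal promoters. It occurred in 40 of 73 (54.8%, exact 95% interval 42.7 to 66.5), against 17.7% of all protein-coding promoters and 9.78% of those of cytosolic ribosomal protein genes. It was in 27 of 47 large subunit promoters and 13 of 26 small subunit ones. The share was 53.6% for mitoribosomal genes with a divergent neighbour and 58.8% for those without, against 21.7% and 15.7% for all protein-coding genes of either kind. Its share did not rise steadily with the strength of the peaks. It was in 10 of 19 promoters of genes with an optimal summit (52.6%) and 10 of 16 with only a weaker pooled summit (62.5%). It was in 9 of 14 with a summit in a replicate list alone (64.3%) and 11 of 24 with no summit in any list (45.8%). These differences were not tested. Under the summits themselves the E box lay at 3 of 23 (13.0%), against 5.71% of the other promoter summits. The windows 500 bp to the right held it at 5 of 23 places (21.7%) and those to the left at 0 of 23, against 5.40% and 5.05% for the other promoter peaks.

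**Figure D5:**
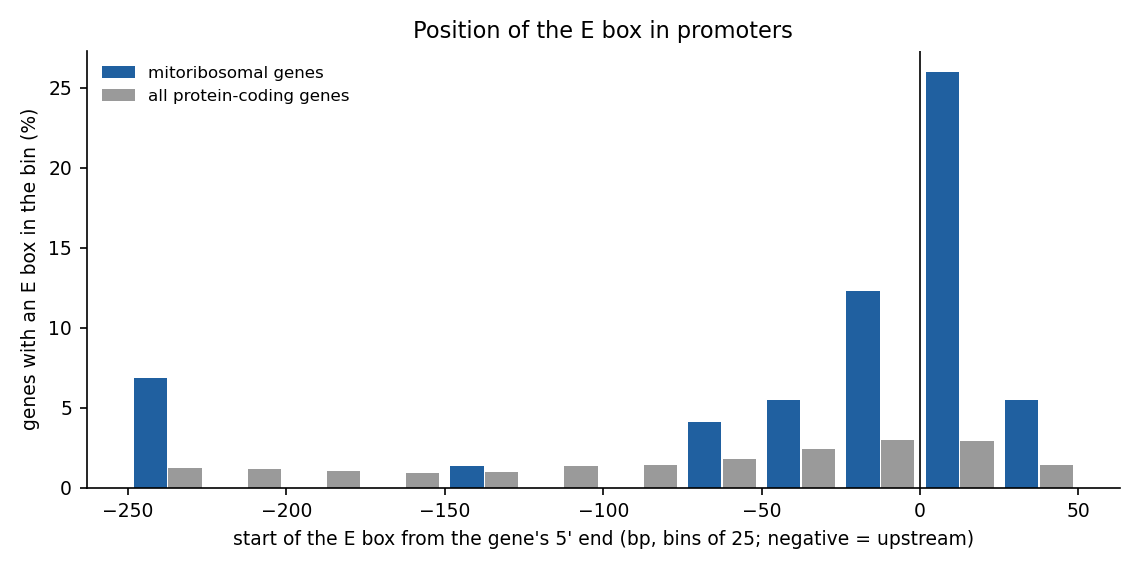
Percent of mitoribosomal genes (blue) and of all protein-coding genes (grey) with an E box CAGCTG starting in each 25-bp bin from 250 bp upstream to 50 bp downstream of the 5' end. The tallest pair is just downstream of the 5' end, with 26.0% of mitoribosomal genes and 2.95% of all protein-coding genes.

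Most copies lay at the start of the gene. Starting within 50 bp to either side of the 5' end, the E box was present in 35 of 73 mitoribosomal genes (47.9%), against 9.30% of all protein-coding genes. A copy began in the first 25 bases of the gene in 19 mitoribosomal genes (26.0%), against 2.95% of all. The same word occurred in the promoters of 18 of 33 other nuclear genes for mitochondrial translation or transcription (54.5%) and of 13 of 40 complex I subunit genes (32.5%). Of the other words, the E box CACGTG was in 6.85% of mitoribosomal promoters, against 4.20% of all. The GAGA element GAGAG was in 16.4%, against 29.7%, and the initiator word TCAGTT in 17.8%, against 26.1%.

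Functionally related genes had other shares of peaks. For all protein-coding genes the shares were 25.5% with an optimal summit and 47.4% with a pooled one. Cytosolic ribosomal protein genes held an optimal summit in 51 of 92 cases (55.4%, exact 95% interval 44.7 to 65.8). Among the strongest peaks of the replicates they numbered 57, 59 and 43 genes (62.0%, 64.1% and 46.7%). The shares of all protein-coding genes there were 26.0%, 28.3% and 24.7%. Their optimal summits carried the GATA hexamer in 25.0% of windows and the DREF element in 16.1%. Complex I subunit genes held an optimal summit in 6 of 40 cases (15.0%, exact 95% interval 5.71 to 29.8). Of 33 other genes for mitochondrial translation or transcription, 2 held one (6.06%, exact 95% interval 0.743 to 20.2) and 9 a pooled one. Those 2 were mRF1, a release factor, with ranks of 4333, 1504 and 3345 in the replicates, and SerRS-m, a mitochondrial seryl-tRNA synthetase, with ranks of 2687, 5186 and 3423. tko and bonsai, mitoribosomal small subunit proteins with other symbols, had no pooled summit. Among genes of up to 2000 bp, 41 of 76 cytosolic ribosomal protein genes (53.9%) and 4 of 34 complex I genes (11.8%) held an optimal summit. So did 1 of 18 of the other genes for mitochondrial translation or transcription (5.56%), against 13.6% of all protein-coding genes of that length. None of these differences between lists was tested, because genes are not replicates.

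By chromosome arm, optimal summits were found at 4 of 12 mitoribosomal genes on 2L, 5 of 12 on 2R, 2 of 17 on 3L, 6 of 21 on 3R and 2 of 11 on X. The shares of all protein-coding genes on these arms were between 24.1% and 26.5%.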

How the data were processed

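The deposited files are narrowPeak lists of ChIP-seq peaks in dm6, called by the authors against a control in each replicate and in the 3 replicates pooled, per the notes that accompany the files. An irreproducible discovery rate test on these gave the optimal list. The aligner and peak caller, with versions and settings, were not given in the sources used here. The control library was not analysed here. The deposited signal value of a peak has no stated scale and served only to rank peaks within a list. The deposited −log10 q-value is capped in each list (4.21 in the pooled list) and was used for nothing else. The deposited summit offset from the peak start, in bp, placed each summit. The optimal list equals the 6580 pooled peaks of highest signal, so its threshold is one on pooled signal.

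Members and gene lists were chosen with earlier results of these data known. Genes are from Ensembl release 115, without transposable elements, and all of the 126580 peaks lie within their arms in the release 6 genome. Promoters were cut from that genome at annotated gene 5' ends in place of a promoter table. In full are named the 10 genes of best pooled rank, those with a GATA, DREF or M1BP element under an optimal summit, the 3 on either side of the optimal threshold and 6 without a pooled summit. Shares carry exact (Clopper-Pearson) 95% intervals. Code was run in Python 3.11.15 with numpy 2.4.6, pandas 2.3.3 and scipy 1.17.1, and tested on simulated data with known answers. Other windows, thresholds, replicate sets and backgrounds were tried. The other assembly's lists were not used here.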

Additional observations from a re-analysis of the deposited data

How the results depend on the processing

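The share of mitoribosomal genes among the strongest peaks, minus that of all protein-coding genes, turned from -3.52 points to 4.47 points with a window of 500 bp around the 5' end, and to 8.54 points against genes of up to 2000 bp, an alternative chosen after seeing the data. It kept its sign under the other 9 alternatives. The count of 19 genes with an optimal summit moved to 3 with gene bodies alone, 9 in the stronger part of the list (3290 peaks), 12 where peaks had to overlap the strongest of all replicates and 11 where at least 0.5 of their length did. The mean of 16.7 genes per replicate moved to 3 with gene bodies alone, 11.0 with the nearest 5' end, 9 with 3290 peaks per replicate and 39.0 with whole lists. Without 1 replicate, these 2 results were 13 and between 15.5 and 17.5.

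The share of summits near a start site, 95.7%, was 100% in the smaller sets given by 500 bp upstream, gene bodies or the 5' window, 90% in the stronger part, 92.3% with overlap by at least 0.5 of the length and 87.0% with protein-coding 5' ends only; without 1 replicate it was 93.8%. The 52.2% of summits with a GATA hexamer became 33.3% with gene bodies, 70% in the stronger part, 42.9% with 13160 pooled peaks, 66.7% and 61.5% with overlap in all replicates by any or at least 0.5 of the length, 26.1% in a window of 51 bases, 65.2% in a window of 100 bp to either side, and 62.5% to 68.8% without 1 replicate. The DREF share rests on 1 summit and moved from 4.35% to 5% with 500 bp upstream or the 5' window, 0 with gene bodies, 7.14% with the nearest 5' end, 10% in the stronger part, 2.86% with 13160 peaks, 6.67% and 7.69% under the 2 overlap rules, and 6.25% without any 1 replicate. The median rank of 3426 became 4366 with 500 bp upstream or the 5' window, 4835 with gene bodies, 4128 with the nearest 5' end, 602 in the stronger part, 5008 with 13160 peaks, 1624 and 2509 with overlap in all replicates by any or at least 0.5 of the length, and 2509 without any 1 replicate. The causes were not tested, beyond the smaller lists that stricter rules leave. Rules that leave out a replicate keep only optimal peaks that overlap the strongest of both others, since the optimal list itself was made from all 3. No paired analysis was possible because the series has 1 group. Read depth is unknown, the control was not analysed here, and a peak between 2 starts cannot be given to 1 gene.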
